A study of Arabidopsis thaliana with 22 samples.

Results

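The response of wild-type *Arabidopsis thaliana* seedlings to brassinazole (BRZ) was measured by QuantSeq, which reads mRNAs from their 3′ ends. The comparison held 7 of the 22 libraries of the series. Its members are the 16194 of 32833 genes that averaged 10 or more normalized reads across these 7 libraries. The 3 BRZ-treated libraries came from whole Col-0 seedlings (WT) grown for 7 days on medium with 250 nM BRZ. The 4 untreated libraries came from WT seedlings of the same age on medium without BRZ. The sample descriptions call these plants untreated, and the treatment protocol says that their medium held DMSO. The same records give long days in one protocol and continuous light in another. The study was about BAF1, an F-box protein that targets the transcription factor BES1 for degradation. It also held seedlings of *baf1*, a single T-DNA insertion line (4 libraries with BRZ and 4 without), and of *bes1-D*, a gain-of-function line with stabilized BES1 (3 libraries with BRZ and 4 without), both in Col-0 and of the same age. Those libraries are used only to see how the WT response appeared in other seedlings.

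Brassinosteroids (BRs) are steroid hormones that promote the elongation of plant cells. They are made from sterols by a chain of cytochrome P450 enzymes and are sensed at the cell surface by the receptor kinase BRI1. Its signal inactivates the kinase BIN2 and lets BES1 and BZR1 accumulate in the nucleus, where they repress genes of BR synthesis and regulate growth genes. BRZ is a triazole that blocks the P450 enzyme DWF4, so plants grown with it are short of BRs. Genes of BR synthesis are known for rising, and auxin-inducible growth genes for falling, in BR-deficient plants.

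Estimated depths were 2110000 to 4690000 reads in the BRZ-treated libraries and 2620000 to 5160000 in the untreated libraries. Untreated replicate 5 stood apart. It correlated with the other untreated libraries across genes at r between 0.945 and 0.959, where the others had r between 0.973 and 0.977. Transcripts of seed storage proteins and oleosins, 12 genes that seedlings should have ceased to use, summed to 298 normalized reads in BRZ-treated replicate 2. The same sum was 25.7 and 70.2 in the other BRZ-treated libraries and 10.6 to 78.5 in the untreated libraries. Markers of root hairs, root endodermis, root tip, stomata and xylem were all detected. Of 4 floral markers, 2 had at most 3 normalized reads in every library. The floral sum was 36.3 to 41.3 with BRZ and 15.2 to 24.9 without, with no overlap, and came mostly from *SEP3*, the 1 floral marker tested (log2 fold change 1.08, SE 0.29, adjusted p = 0.152). The sum of 8 endodermis markers was 655 to 777 with BRZ and 858 to 1098 without, so the groups did not overlap. Because whole seedlings were sampled, fewer cells of a type and less RNA per cell cannot be told apart in any of the values that follow.

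BRZ changed 98 of the 16194 genes, taking limma p-values under 0.05 after Benjamini-Hochberg adjustment, which is 0.605% of the genes tested and is what "called" means below. Of these, 41 rose, with a median log2 fold change of 1.11, and 57 fell, with a median of −0.78. All 98 called genes had no overlap between the 3 BRZ-treated and the 4 untreated libraries, and 10.5% of all tested genes had none. Log2 fold changes past 1 in size were found for 23 of the genes that rose and 20 of those that fell. The looser criterion of the study was an unadjusted p-value under 0.05 with a fold change above 1.1, with p-values from PoissonSeq. Applied here to the p-values of limma, a different test, it gave 1653 genes (10.2% of those tested), 856 higher and 797 lower. The median log2 fold change over all tested genes was 0.04. The number called depended on single libraries. It was 55, 53 and 37 without BRZ-treated replicate 1, 2 and 3, and 65, 46, 57 and 267 without untreated replicate 1, 2, 4 and 5. Of the 98 genes, 32 were called in each of these 7 fits.

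**Figure D1:**
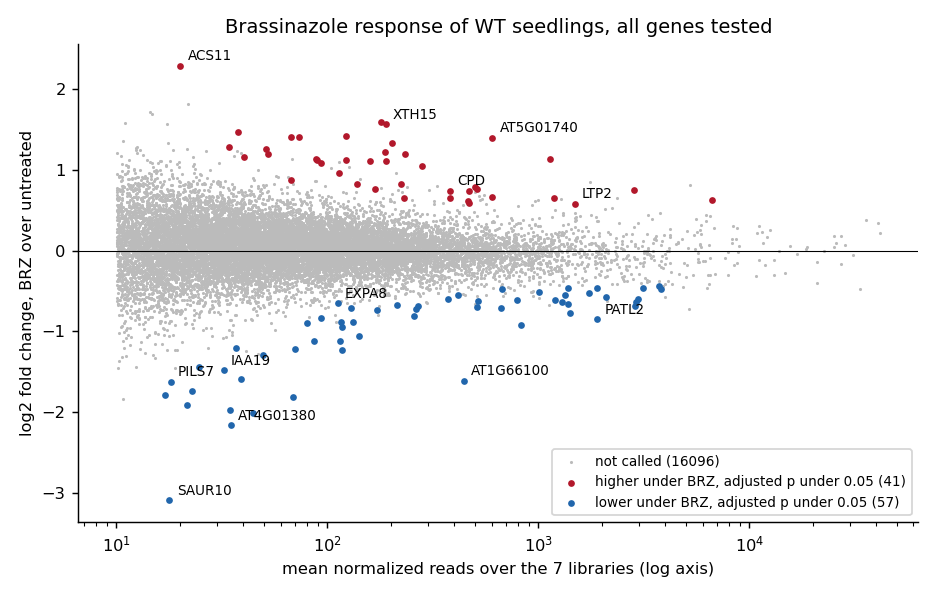
Log2 fold change of each tested gene in WT seedlings, BRZ over untreated, against its mean normalized reads over the 7 libraries on a log axis. Points in color are the 41 genes that rose and the 57 that fell at an adjusted p-value under 0.05. The largest rise, *ACS11* at 2.29, and the largest fall, *SAUR10* at −3.09, had few reads. Others, such as *XTH15* at 1.57, had more (means of 304 with BRZ and 102 without).

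The genes of BR synthesis were measured first, because BRZ acts on this pathway. Of 7 genes listed, 6 were tested and 3 of them rose, against 0.253% of all tested genes called higher. *DWF4* (AT3G50660) encodes the side-chain hydroxylase that BRZ blocks and that limits the rate of synthesis. It had 196, 225 and 265 normalized reads in BRZ-treated libraries, against 98.9, 84.5, 119.7 and 119.6 in untreated libraries, so every treated library lay above every untreated one (log2 fold change 1.11, SE 0.16, adjusted p = 0.00369). The transcript was 2.16-fold as abundant in BRZ-treated seedlings. *CPD* (AT5G05690), another P450 gene of the pathway, had 519, 512 and 452 normalized reads in BRZ-treated libraries, against 295, 305, 312 and 265 in untreated libraries (log2 fold change 0.75, SE 0.11, adjusted p = 0.00467). *BR6OX2* (AT3G30180) encodes the oxidase of the last step to brassinolide, and it had 202, 149 and 227 normalized reads in BRZ-treated libraries, against 61.1, 67.2, 79.4 and 74.5 in untreated libraries. With 2.73-fold as many reads under BRZ (log2 fold change 1.42, SE 0.17, adjusted p = 0.000771), it had the largest change of this list. For each of these 3 genes, the two-sided exact permutation p was 0.029, the smallest that 35 arrangements of 3 libraries against 4 allow. Calls of *CPD* and *BR6OX2* held when any of the 7 libraries was left out, and *DWF4* had an adjusted p of 0.0502 without BRZ-treated replicate 3.

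The other members of the list were not called. *ROT3* (AT4G36380), a hydroxylase gene of the same P450 family, had 62.4, 36.6 and 63.5 normalized reads in BRZ-treated libraries, against 36.7, 23.00, 30.8 and 8.33 in untreated libraries. BRZ-treated replicate 2 lay just under untreated replicate 1, and untreated replicate 5 was far below the rest (log2 fold change 1.23, SE 0.39, adjusted p = 0.237). *CYP90D1* (AT3G13730), its close relative, had 15.9, 24.8 and 37.4 normalized reads in BRZ-treated libraries, against 15.7, 17.3, 15.8 and 19.8 in untreated libraries (log2 fold change 0.50, SE 0.31, adjusted p = 0.634). *DET2* (AT2G38050), the steroid reductase gene, had 88.6, 101 and 95.1 normalized reads in BRZ-treated libraries, against 79.8, 79.8, 88.01 and 115 in untreated libraries and showed overlapping groups (log2 fold change 0.08, SE 0.17, adjusted p = 0.916). *BR6OX1* (AT5G38970), the other oxidase gene, had at most 3.07 normalized reads in any library and was not tested.

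**Figure D2:**
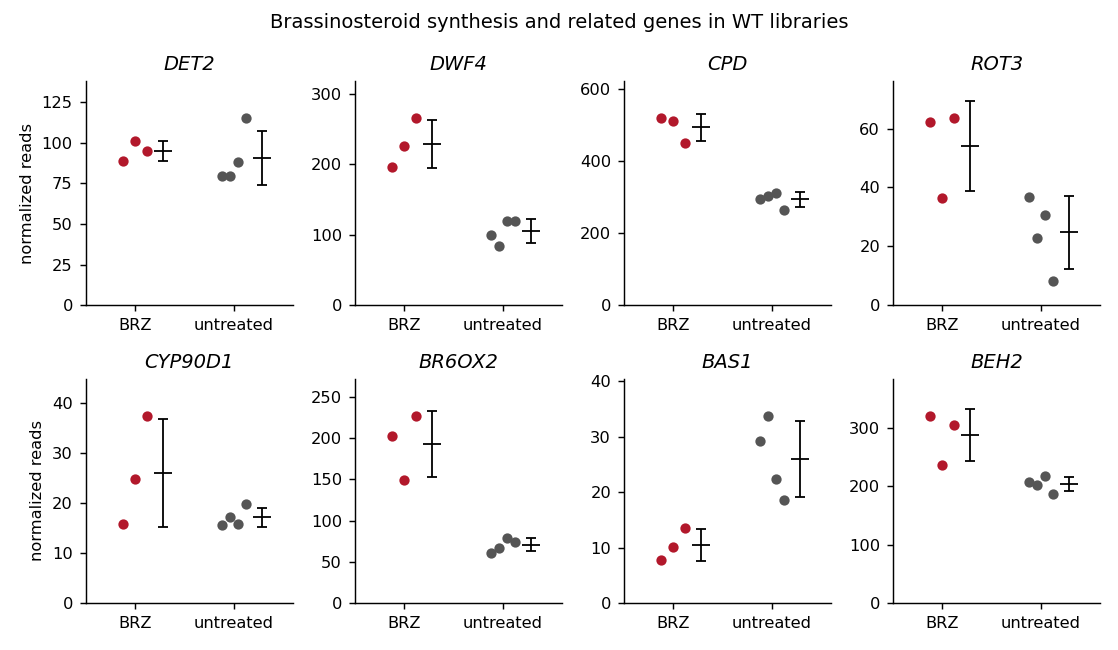
Normalized reads of 6 BR synthesis genes, of *BAS1* (BR inactivation) and of *BEH2* (BES1 family) in each WT library, BRZ-treated on the left and untreated on the right of each panel. Bars give the mean and SD (n = 3 and n = 4), and the groups separate without overlap for *DWF4*, *CPD*, *BR6OX2*, *BAS1* and *BEH2*.

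The regions around the starts of these 3 genes, and of the 2 genes with the largest falls, are shown because BES1 and BZR1 are known to bind a BR response element and E-boxes in promoters. Each sequence runs from 250 bases before to 50 bases after the annotated gene start, on the strand of the gene, in the RefSeq annotation of assembly TAIR10.1. Capitals mark matches to the E-box CANNTG, which reads the same on both strands. The BR response element was searched as CGTGTG or CGTGCG on both strands and was in none of the 5 windows.
*DWF4*, chr3:18817356-18817655, minus strand: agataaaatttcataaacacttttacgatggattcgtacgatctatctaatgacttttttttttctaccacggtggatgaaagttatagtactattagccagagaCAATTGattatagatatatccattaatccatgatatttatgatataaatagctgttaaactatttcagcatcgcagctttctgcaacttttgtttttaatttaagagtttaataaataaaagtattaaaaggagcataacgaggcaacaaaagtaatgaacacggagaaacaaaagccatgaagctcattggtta
*CPD*, chr5:1706899-1707198, minus strand: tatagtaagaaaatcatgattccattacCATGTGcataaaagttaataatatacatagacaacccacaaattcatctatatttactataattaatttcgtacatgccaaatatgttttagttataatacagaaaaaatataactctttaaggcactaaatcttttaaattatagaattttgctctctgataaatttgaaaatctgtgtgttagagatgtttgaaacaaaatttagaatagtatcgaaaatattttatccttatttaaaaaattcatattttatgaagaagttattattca
*BR6OX2*, chr3:11810476-11810775, plus strand: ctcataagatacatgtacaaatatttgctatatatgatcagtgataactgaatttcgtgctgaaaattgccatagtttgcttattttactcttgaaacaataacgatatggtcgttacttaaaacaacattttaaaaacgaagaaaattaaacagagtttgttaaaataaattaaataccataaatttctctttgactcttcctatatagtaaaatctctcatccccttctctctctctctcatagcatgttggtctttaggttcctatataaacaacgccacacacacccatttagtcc
*SAUR10*, chr2:7833532-7833831, plus strand: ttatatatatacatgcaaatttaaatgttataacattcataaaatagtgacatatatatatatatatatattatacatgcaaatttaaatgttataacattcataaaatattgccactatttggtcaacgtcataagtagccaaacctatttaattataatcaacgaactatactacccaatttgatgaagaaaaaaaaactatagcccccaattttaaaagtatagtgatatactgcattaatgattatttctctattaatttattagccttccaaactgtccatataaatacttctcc
*AT4G01380*, chr4:570027-570326, minus strand: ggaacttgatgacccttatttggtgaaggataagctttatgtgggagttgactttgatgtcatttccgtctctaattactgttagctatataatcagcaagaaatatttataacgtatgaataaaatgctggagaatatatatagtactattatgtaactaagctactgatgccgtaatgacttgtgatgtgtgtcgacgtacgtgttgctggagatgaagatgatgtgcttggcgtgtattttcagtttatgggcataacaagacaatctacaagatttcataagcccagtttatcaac
*DWF4* and *CPD* each had 1 E-box in the window and the other 3 genes had 0. Over all called genes, the BR response element was in 4 of 41 windows of genes that rose and 3 of 57 of genes that fell, or 9.76% and 5.26%. It was in 8.07% of the windows of all 32545 genes that had one. E-boxes, of which the G-box CACGTG is 1 form, were in 65.9% of the windows of genes that rose, in 68.4% of those that fell and in 62.6% of all windows. A G-box can share 4 letters with a BR response element. These are matches of letters in short windows and say nothing of binding elsewhere.

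Genes that inactivate BRs were tested for all 6 members, and 0 were called. *BAS1* (AT2G26710), which encodes the hydroxylase that inactivates brassinolide and castasterone, had 7.79, 10.02 and 13.6 normalized reads in BRZ-treated libraries, against 29.2, 33.7, 22.4 and 18.6 in untreated libraries. Its groups did not overlap and it met the looser criterion (log2 fold change −1.23, SE 0.32, adjusted p = 0.13). Of all tested genes, 10.5% did not overlap and 4.92% were lower at that criterion. The other members with the smallest p-values were *BIA1* (AT4G15400), an acyltransferase gene (log2 fold change −0.56, SE 0.32, adjusted p = 0.606), and *SOB7* (AT1G17060), a relative of *BAS1* (log2 fold change 0.19, SE 0.23, adjusted p = 0.852). *BAT1* (AT4G31910), an acyltransferase gene also described as modifying BRs, was not in the list and was singled out after its values were seen. It had 167, 169 and 207 normalized reads in BRZ-treated libraries, against 315, 302, 308 and 339 in untreated libraries (log2 fold change −0.81, SE 0.12, adjusted p = 0.0048).

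None of 9 sterol synthesis genes was called or met the looser criterion, and their log2 fold changes lay between −0.23 and 0.17. The smallest p-values there belonged to the desaturase gene *STE1* (AT3G02580) (log2 fold change −0.23, adjusted p = 0.717), the reductase gene *DWF5* (AT1G50430) (0.17, adjusted p = 0.773) and the isomerase gene *HYD1* (AT1G20050) (0.14, adjusted p = 0.799). Of 13 receptor and kinase genes, 11 were tested and likewise 0 met either threshold. *BRL1* (AT1G55610), a receptor gene of the vasculature, had 17.9, 5.43 and 17.1 normalized reads in BRZ-treated libraries, against 20.9, 23.2, 11.1 and 32.8 in untreated libraries (log2 fold change −0.73, SE 0.43, adjusted p = 0.612). *BRS1* (AT4G30610), a carboxypeptidase gene, and *BIN2* (AT4G18710), the kinase gene, had log2 fold changes of −0.49 (adjusted p = 0.694) and 0.16 (adjusted p = 0.727).

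In the BES1 family, 6 of 6 genes were tested and 0 called, with 2 at the looser criterion, where 5.29% of all tested genes were higher. *BEH2* (AT4G36780) had 321, 237 and 306 normalized reads in BRZ-treated libraries, against 208, 203, 217 and 187 in untreated libraries (log2 fold change 0.49, SE 0.13, adjusted p = 0.165), and *BEH1* (AT3G50750) had 256, 236 and 247 normalized reads in BRZ-treated libraries, against 169, 208, 209 and 187 in untreated libraries (log2 fold change 0.36, SE 0.13, adjusted p = 0.317). In both, every BRZ-treated library lay above every untreated one (exact permutation p = 0.029, the smallest possible), where 10.5% of all tested genes did not overlap. *BES1* (AT1G19350) itself had 548, 497 and 515 normalized reads in BRZ-treated libraries, against 512, 496, 517 and 357 in untreated libraries, and the lowest value came from untreated replicate 5 (log2 fold change 0.16, SE 0.13, adjusted p = 0.753). *BZR1* (AT1G75080) had 118, 116 and 169.8 normalized reads in BRZ-treated libraries, against 134, 153, 133 and 136 in untreated libraries (log2 fold change −0.06, SE 0.16, adjusted p = 0.928). Log2 fold changes were 0.46 (adjusted p = 0.746) for *BEH3* (AT4G18890) and −0.11 (adjusted p = 0.899) for *BEH4* (AT1G78700). The signs of *BZR1* and *BEH4* turned when single libraries were left out.

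Of 8 genes for partners of BES1, 0 were called. *MYBL2* (AT1G71030), which encodes a MYB-like repressor, had 258, 262 and 319 normalized reads in BRZ-treated libraries, against 192, 193, 239 and 182 in untreated libraries (log2 fold change 0.47, SE 0.14, adjusted p = 0.183). *RD26* (AT4G27410), a NAC factor gene of the drought response, had 588, 605 and 599 normalized reads in BRZ-treated libraries, against 514, 495, 446 and 479 in untreated libraries (log2 fold change 0.31, SE 0.10, adjusted p = 0.27). Both had higher values in every BRZ-treated library (exact permutation p = 0.057 for *MYBL2* and 0.029 for *RD26*), where 10.5% of all tested genes did not overlap. *HAT1* (AT4G17460), a homeodomain factor gene, overlapped between groups (log2 fold change 0.26, SE 0.19, adjusted p = 0.707). The 8 genes for the turnover of BES1 held 0 at either threshold, and *BAF1* (AT1G76920) had 265, 317 and 218 normalized reads in BRZ-treated libraries, against 319, 302, 289.8 and 399 in untreated libraries (log2 fold change −0.30, SE 0.15, adjusted p = 0.527). The autophagy receptor gene *DSK2B* (AT2G17200) and the F-box gene *MAX2* (AT2G42620) had log2 fold changes of 0.37 (adjusted p = 0.555) and 0.28 (adjusted p = 0.611). Among growth bHLH genes, 15 of 18 were tested and 0 met either threshold, led by *PRE6* (AT1G26945) (−0.45, adjusted p = 0.5), *PRE3* (AT1G74500) (0.57, adjusted p = 0.545) and *IBH1* (AT2G43060) (0.67, adjusted p = 0.549).

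The 8 largest rises among called genes were led by *ACS11* (AT4G08040), which encodes a synthase of the ethylene precursor ACC. It had 46.7, 38.6 and 27.8 normalized reads in BRZ-treated libraries, against 6.18, 6.63, 5.43 and 9.18 in untreated libraries, a 5.51-fold difference of the means (log2 fold change 2.29, SE 0.33, adjusted p = 0.00324). *AT3G55240*, a gene of unknown function in the annotation, had 318, 302 and 254 normalized reads in BRZ-treated libraries, against 106, 98.99, 97.2 and 81.7 in untreated libraries (log2 fold change 1.59, SE 0.14, adjusted p = 6.57e-05). *XTH15* (AT4G14130), for a xyloglucan-modifying enzyme of the cell wall, had 279, 313 and 321 normalized reads in BRZ-treated libraries, against 91.99, 111, 95.3 and 111 in untreated libraries (log2 fold change 1.57, SE 0.13, adjusted p = 5.29e-05). In these 3 genes every treated library was far above every untreated one. *AT5G52050* encodes a MATE efflux carrier and had 63.5, 61.6 and 53.8 normalized reads in BRZ-treated libraries, against 24.98, 23.02, 18.6 and 17.6 in untreated libraries (log2 fold change 1.47, SE 0.22, adjusted p = 0.00479). *BR6OX2*, described above, was also among the 8. *AT5G05250*, an uncharacterized gene, had 114, 128 and 76.1 normalized reads in BRZ-treated libraries, against 35.8, 38.4, 32.5 and 47.8 in untreated libraries (log2 fold change 1.41, SE 0.21, adjusted p = 0.00442). *AT3G51400*, annotated only by a domain of unknown function, had 112, 117 and 114 normalized reads in BRZ-treated libraries, against 34.9, 45.2, 50.6 and 40.5 in untreated libraries (log2 fold change 1.41, SE 0.18, adjusted p = 0.00112). *AT5G01740*, which encodes a protein of the nuclear transport factor family, was the most abundant of the 8, with 1182, 801 and 841 normalized reads in BRZ-treated libraries, against 378, 339.6, 317 and 369 in untreated libraries (log2 fold change 1.402, SE 0.14, adjusted p = 0.000126). All 8 were called in each fit that left out a library.

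The largest fall was that of *SAUR10* (AT2G18010), a small auxin-induced gene, with 4.94, 0.749 and 3.102 normalized reads in BRZ-treated libraries, against 28.4, 34.9, 26.5 and 26.1 in untreated libraries (log2 fold change −3.09, SE 0.43, adjusted p = 0.00239). Its treated values are near the limit that so few reads can measure, so the size of the fall is uncertain. *AT4G01380*, for a plastocyanin-like protein, had 9.86, 13.5 and 9.64 normalized reads in BRZ-treated libraries, against 42.1, 55.8, 53.4 and 59.1 in untreated libraries (log2 fold change −2.16, SE 0.25, adjusted p = 0.000475). *AT5G35525*, for a PLAC8 family protein, had 20.3, 16.04 and 11.01 normalized reads in BRZ-treated libraries, against 80.9, 49.1, 64.9 and 68.5 in untreated libraries (log2 fold change −2.01, SE 0.25, adjusted p = 0.00112). The treated libraries of both lay below the untreated ones by a wide margin. *CYP712A1* (AT2G42250), a P450 gene with no role given in the annotation, had 5.33, 19.9 and 13.95 normalized reads in BRZ-treated libraries, against 68.1, 57.9, 46.05 and 29.3 in untreated libraries (log2 fold change −1.97, SE 0.38, adjusted p = 0.0258), with wide spread in both groups. *SAUR15* (AT4G38850) had 9.56, 6.98 and 6.84 normalized reads in BRZ-treated libraries, against 30.6, 36.7, 32.04 and 28.2 in untreated libraries (log2 fold change −1.91, SE 0.28, adjusted p = 0.0043). *AT5G44440* encodes a FAD-binding berberine family protein and had 20.3, 31.2 and 33.2 normalized reads in BRZ-treated libraries, against 109.6, 96.6, 109 and 83.9 in untreated libraries (log2 fold change −1.81, SE 0.21, adjusted p = 0.000475). *AT1G52820*, for an oxoglutarate-dependent dioxygenase, had 4.799, 8.21 and 6.66 normalized reads in BRZ-treated libraries, against 30.9, 24.1, 21.6 and 22.95 in untreated libraries (log2 fold change −1.79, SE 0.32, adjusted p = 0.0167). *AT5G10210* had 9.51, 9.799 and 8.53 normalized reads in BRZ-treated libraries, against 31.9, 32.8, 32.96 and 34.7 in untreated libraries, with nearly equal values within each group (log2 fold change −1.73, SE 0.26, adjusted p = 0.00442). *CYP712A1* and *AT1G52820* were each lost without BRZ-treated replicate 1 or 3, or untreated replicate 1, 2 or 4 (adjusted p = 0.0695 to 0.151 and 0.0525 to 0.0907). The other 6 were called in each of the 7 fits. *AT4G01380* overlaps a neighbor on the other strand in TAIR10.1, and 30 of the called genes overlap another gene, 3 of them on the same strand (*AT1G66100*, *FBA5* and *TUB6*). Whether the counting used strand is not given in the sources used here.

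The study had picked 6 genes for RT-qPCR from these same libraries, so their changes here are not independent evidence of a response. It then repeated the treatment and reported that RT-qPCR of these genes bore out the sequencing. Those measurements are not used here. Of these, *AT3G55240*, *AT5G05250* and *AT5G01740* rose, as given above. *AT1G66100*, annotated as a plant thionin of defense, had 223, 189 and 197 normalized reads in BRZ-treated libraries, against 639, 660.1, 596 and 589 in untreated libraries (log2 fold change −1.61, SE 0.11, adjusted p = 5.29e-06), 3.06-fold lower in the treated seedlings and called under each left-out library. *PILS7* (AT5G65980), for a PIN-like auxin carrier, had 5.32, 8.82 and 9.11 normalized reads in BRZ-treated libraries, against 26.5, 23.03, 20.5 and 33.1 in untreated libraries (log2 fold change −1.62, SE 0.32, adjusted p = 0.0311). It was lost without any of the libraries other than untreated replicate 5 (adjusted p = 0.0661 to 0.119). *AT1G79640*, a kinase gene, was below the minimum mean and was not tested. It had 2.72, 0.528 and 4.22 normalized reads in BRZ-treated libraries, against 11.7, 8.67, 8.43 and 7.07 in untreated libraries, with no overlap between the groups (exact permutation p = 0.029, the smallest possible).

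Among auxin-related genes, the SAUR family had the lowest median of the gene lists. SAUR genes are small auxin-induced genes whose products promote cell expansion. Of 34 listed, 28 were tested, 5 fell and 0 rose, against 0.352% of all tested genes called lower. At the looser criterion, 15 were lower and 3 higher, against 4.92% and 5.29% of all tested genes. The median log2 fold change was −0.62, where that of all tested genes was 0.04. Besides *SAUR10* and *SAUR15*, *SAUR29* (AT3G03820) had 13.6, 8.37 and 14.6 normalized reads in BRZ-treated libraries, against 29.8, 33.8, 32.98 and 39.5 in untreated libraries (log2 fold change −1.44, SE 0.28, adjusted p = 0.0253), *SAUR21* (AT5G18030) had 35.7, 33.6 and 49.2 normalized reads in BRZ-treated libraries, against 78.2, 77.99, 106 and 109 in untreated libraries (log2 fold change −1.21, SE 0.20, adjusted p = 0.00886), and *SAUR16* (AT4G38860) had 87.8, 76.02 and 104 normalized reads in BRZ-treated libraries, against 141, 147, 171 and 200.5 in untreated libraries (log2 fold change −0.88, SE 0.16, adjusted p = 0.0216). In all 5 genes, no treated library reached the lowest untreated one. The 3 members at the looser criterion that were higher were *SAUR6*, *SAUR36* and *SAUR51*, with log2 fold changes of 0.38, 0.46 and 0.59. *SAUR20* to *SAUR24* and *SAUR62* to *SAUR66* belong to groups of near-identical copies, so reads may be divided among them with uncertainty. Without BRZ-treated replicate 2, the number of SAUR genes that fell was 2, and without untreated replicate 5 it was 6. *SAUR29* was lost without any library other than untreated replicate 5 (adjusted p = 0.0547 to 0.12), and *SAUR16* without BRZ-treated replicate 1 or 2 or untreated replicate 2 or 4 (adjusted p = 0.0735 to 0.117). *SAUR21* was lost without BRZ-treated replicate 1 or 2 (adjusted p = 0.0616 and 0.0547).

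**Figure D3:**
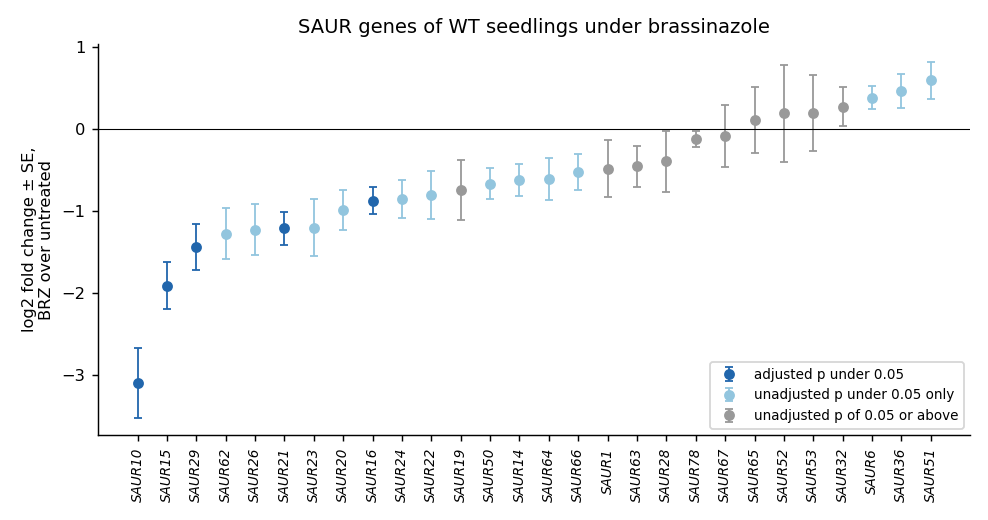
Log2 fold change of the 28 tested SAUR genes in WT seedlings, BRZ over untreated, in order of size. Bars give the standard error from limma, and the 5 dark points are the genes that fell at an adjusted p-value under 0.05.

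Of 29 Aux/IAA and GH3 genes, 23 were tested, with 1 called in each direction, against 0.253% of all tested genes called higher and 0.352% called lower. *IAA19* (AT3G15540), an auxin-induced repressor of auxin responses, had 11.6, 15.9 and 18.9 normalized reads in BRZ-treated libraries, against 55.7, 36.6, 39.4 and 47.5 in untreated libraries (log2 fold change −1.48, SE 0.26, adjusted p = 0.0124). *GH3.5* (AT4G27260), for an enzyme that conjugates auxin to amino acids, had 279, 257 and 303 normalized reads in BRZ-treated libraries, against 129, 115, 123 and 109 in untreated libraries (log2 fold change 1.23, SE 0.13, adjusted p = 0.000361), 2.35-fold as many under BRZ. The looser criterion was met by 3 higher genes, all GH3 genes, *GH3.3* and *GH3.6* at log2 fold changes of 0.72 and 0.79 besides *GH3.5*. The 6 lower genes were all Aux/IAA genes, *IAA3*, *IAA9*, *IAA13*, *IAA14* and *IAA17* besides *IAA19*, at −0.65 to −0.26 for the 5 that were not called. Of all tested genes, 5.29% were higher and 4.92% lower at that criterion. Calls of *GH3.5* held under each left-out library, and *IAA19* was lost without BRZ-treated replicate 1 or untreated replicate 1 (adjusted p = 0.0694 and 0.0586). Of 12 auxin transport genes, all tested, only *PILS7* was called.

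Cell wall genes moved in both directions. In the XTH family, whose enzymes cut and rejoin xyloglucan, 23 of 28 genes were tested. *XTH15* alone was called, against 0.253% of all tested genes called higher. *XTH7* and *XTH33* were lower at the looser criterion, against 4.92% of all tested genes, with log2 fold changes of −0.58 and −1.14. Expansins loosen walls in growing cells. Of 18 genes, 15 were tested and 2 fell, against 0.352% of all tested genes called lower. *EXPA15* (AT2G03090) had 142, 155 and 182 normalized reads in BRZ-treated libraries, against 230.1, 236, 259 and 292 in untreated libraries (log2 fold change −0.67, SE 0.14, adjusted p = 0.0355) and *EXPA8* (AT2G40610) had 87.6, 83.4 and 81.5 normalized reads in BRZ-treated libraries, against 127, 134, 129 and 140.2 in untreated libraries (log2 fold change −0.65, SE 0.14, adjusted p = 0.0491). *EXPA11* and *EXPA1* were lower at the looser criterion (−0.55 and −0.33), and *EXPA7*, a gene of root hairs, and *EXPA16* were higher (0.64 and 0.60), against 4.92% and 5.29% of all tested genes lower and higher. Both called expansins were lost without any library other than untreated replicate 5 (adjusted p = 0.0586 to 0.176 for *EXPA15* and 0.116 to 0.201 for *EXPA8*).

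All 8 cellulose synthase genes were tested and 0 called. *CESA8* (AT4G18780), for a subunit of secondary walls, had 58.7, 39.4 and 65.5 normalized reads in BRZ-treated libraries, against 93.4, 71.2, 82.4 and 77.3 in untreated libraries (log2 fold change −0.59, SE 0.20, adjusted p = 0.277). Its partner *CESA7* (AT5G17420) had overlapping groups (log2 fold change −0.52, SE 0.27, adjusted p = 0.567), and the sum of the 5 xylem markers, among them cellulose synthases of secondary walls, was 369 to 536 with BRZ and 473 to 584 without. *CESA5* (AT5G09870), of primary walls, had a log2 fold change of −0.23 (adjusted p = 0.484). Aquaporins let water pass membranes, and 19 of 19 were tested with 0 called, 3 higher and 4 lower at the looser criterion, against 5.29% and 4.92% of all tested genes. *TIP2;3* (AT5G47450), a tonoplast form of roots, had 1499, 1908 and 1403 normalized reads in BRZ-treated libraries, against 1227, 949, 1140.2 and 822 in untreated libraries (log2 fold change 0.64, SE 0.14, adjusted p = 0.0652). *PIP1;5* (AT4G23400) was 1124, 1034 and 1105 with BRZ, against 895, 860.1, 898 and 812 without (log2 fold change 0.33, SE 0.10, adjusted p = 0.194), and *PIP2A* (AT3G53420) was 1155, 1127 and 1125 with BRZ, against 1460.5, 1467, 1327 and 1467 without (log2 fold change −0.33, SE 0.09, adjusted p = 0.168). In each of these 3 genes, which had the smallest p-values of the list, the groups did not overlap. Over the list, 4 genes were higher and 4 lower without overlap, where 10.5% of all tested genes did not overlap.

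The called genes of gibberellin and ethylene rose. Of 22 gibberellin genes, 13 were tested, 1 rose and 4 were higher at the looser criterion, with 0 lower, against 0.253% of all tested genes called higher and 5.29% higher at that criterion. *GASA4* (AT5G15230), a gibberellin-inducible peptide gene, had 712, 601 and 687 normalized reads in BRZ-treated libraries, against 391, 439, 403 and 334 in untreated libraries (log2 fold change 0.77, SE 0.12, adjusted p = 0.00523), and had an adjusted p of 0.0547 without BRZ-treated replicate 3. *GASA1*, *GASA6* and the receptor gene *GID1C* had log2 fold changes of 0.66, 0.62 and 0.44. Of 14 ethylene synthesis genes, 8 were tested, *ACS11* rose, and *ACS7* and *ACO5* were higher at the looser criterion (0.81 and 0.67). The 6 genes not tested were all ACS genes with few reads.

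Light, plastid and clock genes held 1 called gene, *FKF1*. Of 40 photosystem, antenna and Rubisco genes, 39 were tested with 0 called. The looser criterion was met by 10, all higher, against 5.29% of all tested genes, and 33 of the 39 had a log2 fold change above 0, as did 55.3% of all tested genes. The median was 0.14. *LHCB1.3* (AT1G29930), for an antenna protein, had 42767, 37768 and 42693 normalized reads in BRZ-treated libraries, against 32391, 30679, 33087 and 29558 in untreated libraries (log2 fold change 0.39, SE 0.10, adjusted p = 0.123). *LHCB1.5* (AT2G34420), a near-identical copy whose reads may be divided with it, was 1.27-fold as abundant (log2 fold change 0.34, SE 0.09, adjusted p = 0.165), and *LHCA3* (AT1G61520) was 1.23-fold (log2 fold change 0.30, SE 0.09, adjusted p = 0.228). For these 3 genes, which had the smallest p-values of the list, all treated libraries were above all untreated ones. Over the list, 13 genes were higher and 0 lower without overlap, where 10.5% of all tested genes did not overlap. Without untreated replicate 5, 1 gene of the list was called in each direction, against 0.673% of all tested genes called higher and 0.975% lower. At the looser criterion, 10 were then higher and 3 lower, against 1073 and 888 of the 16208 genes tested in that fit. The scaling of the libraries bears on such small shifts, and with median-of-ratios factors the median of the list was 0.12 and that of all tested genes 0.01.

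Of 15 genes for chlorophyll synthesis and its GLK regulators, 0 were called. *PORA* (AT5G54190) and *PORC* (AT1G03630) encode forms of the light-dependent protochlorophyllide reductase and stood in opposite directions. *PORA* had 24.2, 30.7 and 28.8 normalized reads in BRZ-treated libraries, against 8.095, 12.5, 8.35 and 17.4 in untreated libraries (log2 fold change 1.25, SE 0.33, adjusted p = 0.136), while *PORC* had 380.3, 440.1 and 357 normalized reads in BRZ-treated libraries, against 487, 583, 503 and 619.8 in untreated libraries (log2 fold change −0.48, SE 0.12, adjusted p = 0.125). *CRD1* (AT3G56940) had a log2 fold change of 0.23 (adjusted p = 0.463). The 12 light regulator genes held 4 at the looser criterion, all higher, and 0 called, against 5.29% of all tested genes. *HFR1* (AT1G02340), for a bHLH factor of shade responses, had 31.2, 34.3 and 40.03 normalized reads in BRZ-treated libraries, against 22.3, 17.3, 20.6 and 16.7 in untreated libraries (log2 fold change 0.84, SE 0.25, adjusted p = 0.196). *PIF3* (AT1G09530) was 86.4, 85.5 and 85.9 with BRZ, against 57.4, 39.4, 70.3 and 56.6 without (log2 fold change 0.64, SE 0.20, adjusted p = 0.222), and *ATHB2* (AT4G16780), a shade-induced homeodomain gene, was 149, 131 and 156 with BRZ, against 90.98, 90.5, 104 and 116 without (log2 fold change 0.54, SE 0.15, adjusted p = 0.168). These 3 genes, which had the smallest p-values of the list, were the only ones of it without overlap between groups, where 10.5% of all tested genes did not overlap. Of 20 clock genes, 19 were tested and 1 rose, against 0.253% of all tested genes called higher. This was *FKF1* (AT1G68050), for a blue-light receptor that times flowering, with 67.3, 83.8 and 76.1 normalized reads in BRZ-treated libraries, against 44.3, 19.1, 30.7 and 35.4 in untreated libraries (log2 fold change 1.26, SE 0.25, adjusted p = 0.0335). It was lost without any of the 3 BRZ-treated libraries or untreated replicate 2 or 4 (adjusted p = 0.0826 to 0.191).

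Defense and stress lists held 1 called gene, *ERD10*. Of 21 jasmonate genes, 17 were tested with 0 called, and the looser criterion was met by 5, all lower, against 4.92% of all tested genes. *AOS* (AT5G42650), for the first enzyme specific to the pathway, had 627, 576 and 667 normalized reads in BRZ-treated libraries, against 852, 802, 845 and 991 in untreated libraries (log2 fold change −0.48, SE 0.11, adjusted p = 0.0653). *AOC2* (AT3G25770), for the next enzyme, was 230.3, 198 and 253 with BRZ, against 281, 316, 313 and 406 without (log2 fold change −0.53, SE 0.14, adjusted p = 0.152), and the lipoxygenase gene *LOX4* (AT1G72520) was 8.86, 5.43 and 8.16 with BRZ, against 14.7, 13.4, 23.5 and 30.3 without (log2 fold change −1.29, SE 0.37, adjusted p = 0.183). The groups did not overlap in any of these 3, which had the smallest p-values of the list, where 10.5% of all tested genes did not overlap. Of 26 glucosinolate genes, 25 were tested and 0 called, with *SOT17* (AT1G18590) at −0.55 (adjusted p = 0.235), *UGT74B1* (AT1G24100) at −0.31 (adjusted p = 0.46) and *MAM3* (AT5G23020) at 0.30 (adjusted p = 0.602) on the log2 scale. Of 14 drought and cold genes, 12 were tested and 1 fell, against 0.352% of all tested genes called lower. This was the dehydrin gene *ERD10* (AT1G20450), with 1159, 1214 and 1067 normalized reads in BRZ-treated libraries, against 1545, 1619, 1530.2 and 1589 in untreated libraries (log2 fold change −0.46, SE 0.09, adjusted p = 0.0378). It was lost without any library other than untreated replicate 5 (adjusted p = 0.0892 to 0.23).

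The remaining lists held no called gene. Of 19 flavonoid genes, 14 were tested. *LDOX* (AT4G22880), for a late anthocyanin enzyme, had 12.02, 4.13 and 5.17 normalized reads in BRZ-treated libraries, against 14.5, 13.4, 12.1 and 34.4 in untreated libraries (log2 fold change −1.27, SE 0.45, adjusted p = 0.315), with 1 high library, untreated replicate 5. *FLS1* (AT5G08640) and *F3H* (AT3G51240) had log2 fold changes of 0.61 (adjusted p = 0.333) and 0.44 (adjusted p = 0.445). Among 8 tested of 16 phosphate starvation genes were *SPX1* (AT5G20150) at 0.58 (adjusted p = 0.241), *PAP17* (AT3G17790) at 0.65 (adjusted p = 0.543) and *PHT1;4* (AT2G38940) at 0.35 (adjusted p = 0.57). In the iron list, 16 of 24 genes were tested. The storage genes *VTL5* (AT3G25190) and *FER3* (AT3G56090) were lower in each treated library (−0.53 and −0.42, adjusted p = 0.104 and 0.204), and the uptake gene *IRT1* (AT4G19690) was higher in each (0.63, adjusted p = 0.425). These had the smallest p-values of the iron list, and 10.5% of all tested genes did not overlap between the groups. Of 15 wax genes, 13 were tested, led by *KCS9* (AT2G16280) (−0.34, adjusted p = 0.292), *CUT1* (AT1G68530) (−0.43, adjusted p = 0.294) and *KCS16* (AT4G34250) (0.60, adjusted p = 0.331). Endodermis markers, which form the Casparian strip of the root, were all tested with 0 of 8 called. Of the 8, 7 were below 0, with a median of −0.32, and 3 were lower at the looser criterion without overlap, against 4.92% of all tested genes. The part of these cells in the changes of other root genes was not tested.

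The counts of called list members depended on untreated replicate 5, the library that stood apart. Without it, 0.673% of all tested genes were called higher and 0.975% lower. At the looser criterion, 1073 of the 16208 genes then tested were higher and 888 lower. Besides the photosystem list, the lists with 0 called genes as reported then held 1 growth bHLH gene, 1 BR inactivation gene, 1 jasmonate gene, 1 iron gene, 2 wax genes and 1 endodermis marker called lower, and 1 chlorophyll gene and 1 light regulator gene called higher. Aquaporins then had 1 called higher and 2 lower, with 7 lower at the looser criterion. Of the growth bHLH genes, 2 were then higher and 3 lower at that criterion. The Aux/IAA and GH3 list then had 2 called higher and 3 lower, the XTH list 1 higher and 3 lower, the expansins 3 lower, the clock list 2 higher and the drought and cold list 2 lower.

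**Figure D4:**
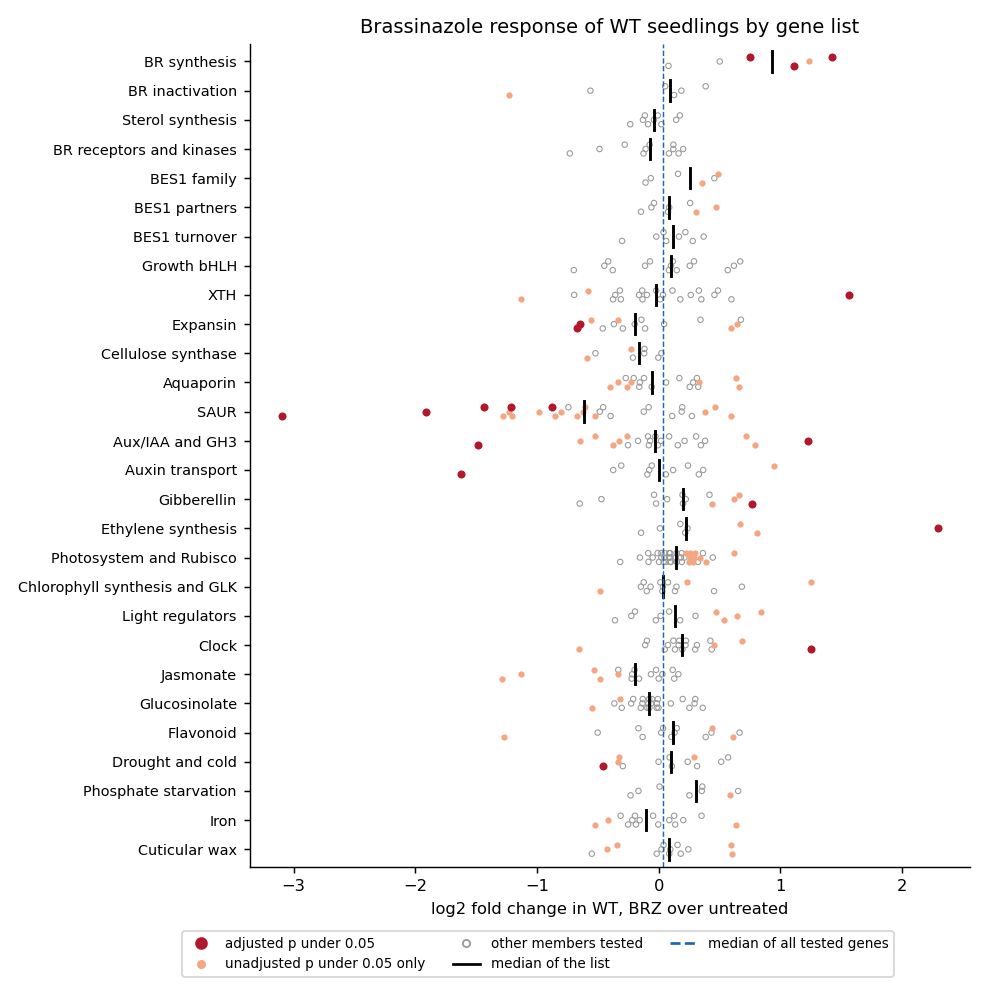
Log2 fold change of the tested members of each gene list in WT seedlings, BRZ over untreated. Filled dark points were called at an adjusted p-value under 0.05, light points met an unadjusted p-value under 0.05, black lines are list medians and the dashed line is the median of all tested genes, 0.04. BR synthesis lies to the right, with a median of 0.93, and SAUR to the left, with −0.62.

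The genes called in WT were then followed in seedlings that shared no library with the WT comparison. In *baf1*, 97 of the 98 were tested, and 96 of these had a log2 fold change of the same sign as in WT (99.0%, Wilson 95% interval 94.4% to 99.8%, which treats genes as independent). The exception was the blue-light receptor gene *CRY2*, at 0.65 in WT and −0.08 in *baf1*. *PILS7* kept its sign but had −0.12 in *baf1* (adjusted p = 0.895), where it had −1.62 in WT. Of the 97, 67 were also called in *baf1* in the same direction (69.1%), where 1.8% of all tested genes were called. The median log2 fold change in the direction of WT was 0.65 in *baf1* and 0.88 in WT for these genes, and 77 of the 97 changed less in *baf1*. The WT values chose these genes, so this difference in size is not a result. *BR6OX2* and *DWF4* had log2 fold changes of 1.93 and 1.53 in *baf1* (adjusted p = 1.12e-05 and 2.21e-06), and *SAUR10* had −2.71 (adjusted p = 0.0047). In the SAUR list, 7 of 26 genes fell in *baf1*, against 0.885% of all tested genes called lower. At the looser criterion 18 were lower, where 6.19% of all tested genes were lower.

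In *bes1-D*, 94 of the 98 genes were tested and 59 had the same sign as in WT (62.8%). The Wilson 95% interval, 52.7% to 71.9%, again treats genes as independent and does not measure the spread between libraries. Of the 94, 3 were called, all in the direction of WT (3.19%), where 0.576% of all tested genes were called. The median log2 fold change in the direction of WT was 0.07 in *bes1-D* and 0.84 in WT for these genes. The WT values chose these genes here too, which can enlarge this difference. *DWF4* had a log2 fold change of 0.17 there (adjusted p = 0.818) and *CPD* had 0.00 (adjusted p = 0.999), while *BR6OX2* had 0.64 (adjusted p = 0.323). *SAUR10* had −0.63 (adjusted p = 0.421). The BR synthesis genes were already lower in untreated *bes1-D* than in untreated WT seedlings. Mean normalized reads were 31.4 against 105.7 for *DWF4*, 110.8 against 294.2 for *CPD* and 27.2 against 70.5 for *BR6OX2*. This difference between genotypes was not tested. No SAUR gene of 27 tested was called in *bes1-D*, and 6 were lower at the looser criterion, where 8.2% of all tested genes were lower.

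**Figure D5:**
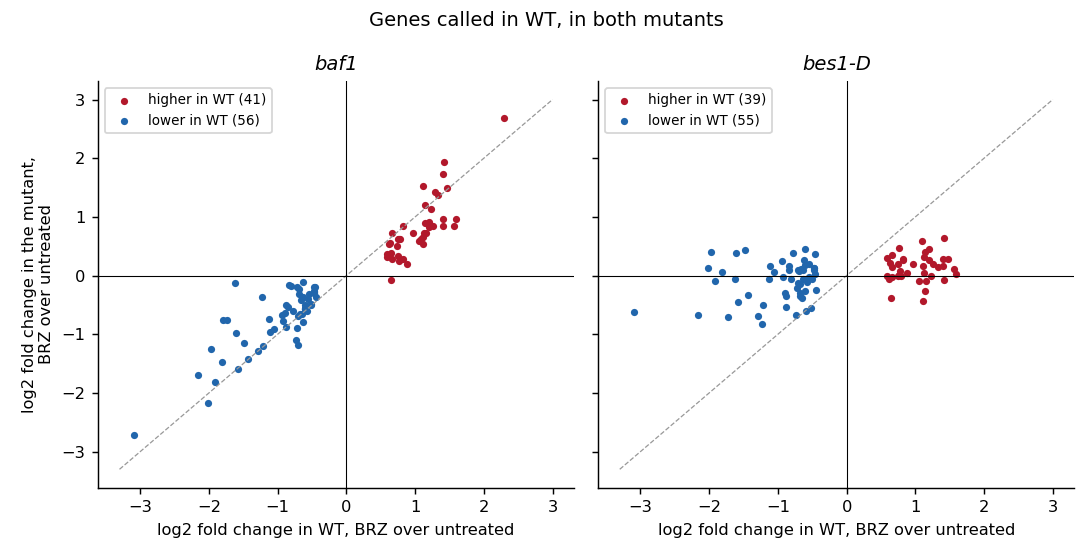
Log2 fold change under BRZ of the genes called in WT, with the value in WT on the x axis and the value in *baf1* (left, 97 genes) or *bes1-D* (right, 94 genes) on the y axis. The dashed line marks equal values. In *baf1*, 96 of 97 points are on the same side of 0 as in WT, and 77 of the 97 genes changed less than in WT. The points of *bes1-D* lie between −1 and 1 on the y axis.

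Whether the responses differed was tested by the interaction of BRZ with genotype. Between WT and *baf1*, 0 of 16315 genes had an adjusted p-value under 0.05 with limma, 0 with voom weights in limma, and 944 (5.79%) had an unadjusted p-value under 0.05. Between WT and *bes1-D*, 39 of 16288 genes (0.239%) had an adjusted p-value under 0.05. The difference, WT minus *bes1-D*, was positive for 11 (0.0675%) and negative for 28 (0.172%), and 13.7% of the genes had an unadjusted p-value under 0.05. Among the 39 were 24 of the 98 genes called in WT, a count that shares the WT libraries with the calls. The smallest adjusted p belonged to *AT1G66100*, the thionin gene, with a log2 fold change of −1.61 in WT and 0.39 in *bes1-D* (difference −1.997, SE 0.15, adjusted p = 9.05e-08). It had in *bes1-D* 841 ± 94.4 normalized reads with BRZ (SD, n = 3) and 642 ± 49.00 without (SD, n = 4). *AT1G12080*, annotated as similar to a vacuolar calcium-binding protein, had 1079, 1040.2 and 903 normalized reads in BRZ-treated libraries, against 1676, 1793, 1613 and 1814 in untreated libraries in WT (log2 fold change −0.78), and 0.38 in *bes1-D* (difference −1.16, SE 0.16, adjusted p = 0.00158). *XTH15* was higher under BRZ in WT and had in *bes1-D* 57.9 ± 5.38 normalized reads with BRZ (SD, n = 3) and 53.7 ± 4.25 without (SD, n = 4) (difference 1.46, SE 0.20, adjusted p = 0.00163). *PATL2* (AT1G22530), which encodes a patellin, a membrane-associated lipid-binding protein, had 1472, 1294 and 1159 normalized reads in BRZ-treated libraries, against 2321, 2267, 2196 and 2591 in untreated libraries in WT (log2 fold change −0.84). In *bes1-D* it had a log2 fold change of 0.17 (difference −1.02, SE 0.15, adjusted p = 0.00284). The number of interaction genes depended on single libraries. It was 10 without WT BRZ-treated replicate 3, 17 and 23 without WT untreated replicate 2 and 4, 14 and 10 without *bes1-D* untreated replicate 2 and 3, and 197, 20 and 21 without *bes1-D* BRZ-treated replicate 1, 3 and 5.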

How the data were processed

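QuantSeq 3′ libraries were made by the authors from whole seedlings, sequenced as single-end reads of 50 bases and processed on the BlueBee platform (Lexogen QuantSeq FWD pipeline) against TAIR10. The labels also list STAR, HTSeq and edgeR, without versions. The authors deposited 1 table whose values are a normalized signal, set to a common library size. Values are not whole reads, so no count model was fitted, and 0 columns were left out. Depth before adjustment was estimated from 600 low genes by undoing such an adjustment, with negative binomial counts of dispersion 0.05.

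Groups were taken from sample titles. Genes with a mean of at least 10 were fitted with limma 3.58.1 in R 4.3.3 (lmFit and eBayes, trend included) on values as log2(value + 1), a scale that understates changes of low genes. P-values were adjusted by Benjamini-Hochberg over all genes tested. The replicates are described as biological, with no batch given. Single genes were also compared by exact permutation of libraries. The script was tested on simulated data.

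Members and gene lists were chosen with earlier results of these data known. Genes named are all members of the BR synthesis, BES1 family and RT-qPCR lists, the 8 largest rises and falls among called genes without overlap, from each other list the called members or otherwise up to 3 with the smallest p-values, and up to 4 per interaction. Other genes named, such as list members at the looser criterion, were chosen after their values were seen. Gene names came from RefSeq (TAIR10.1), which matched 32548 of 32833 identifiers. Promoter windows were read from the TAIR10.1 sequence, for the 3 BR synthesis genes with the smallest p-values and the 2 largest falls. Alternatives were pseudocounts of 0.1 and 5, no filter, a minimum mean of 50, median-of-ratios factors, all 22 libraries in 1 fit, a replicate block, no trend, a fold change above 1.5, each library left out, and, added after seeing the data, voom weights on estimated reads and each mutant library left out.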

Additional observations from a re-analysis of the deposited data

Results flagged for a closer look

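In 6 genes, 1 of the 4 untreated WT libraries stood far from the other 3. Replicate 5 had 357 normalized reads of *BES1* where the others had 496 to 517, 154 of *SOT17* where the others had 116 to 121, and 34.4 of *LDOX* where the others had 12.1 to 14.5. Replicate 4 had 25.2 of *CESA7* where the others had 38.2 to 40.5, and 1327 of *PIP2A* where the others had about 1460.5 to 1467. Replicate 2 had 153 of *BZR1* where the others had 133 to 136. Of the 100 values examined in this way, chance would mark about 1 in 20.

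For 13 named genes, the log2 fold change under BRZ in WT differed from that in *bes1-D* in the interaction test of limma. All 13 were called in WT, and the same WT libraries enter the interaction, so their choice can enlarge these differences. Of all 16288 genes in this test, 39 (0.239%) had an adjusted p-value under 0.05. The difference, WT minus *bes1-D*, was positive for *AT3G55240* (1.56, adjusted p = 0.005), *AT5G05250* (1.49, adjusted p = 0.0291), *XTH15* (1.46, adjusted p = 0.00163), *AT5G01740* (1.25, adjusted p = 0.00943) and *GH3.5* (1.23, adjusted p = 0.03). It was negative for *AT1G52820* (−2.45, adjusted p = 0.0341), *AT5G35525* (−2.13, adjusted p = 0.00476), *AT1G66100* (−1.997, adjusted p = 9.05e-08), *IAA19* (−1.92, adjusted p = 0.0186), *SAUR15* (−1.81, adjusted p = 0.0338), *AT1G12080* (−1.16, adjusted p = 0.00158), *PATL2* (−1.02, adjusted p = 0.00284) and *ERD10* (−0.82, adjusted p = 0.0121). *AT1G52820* was below the minimum mean in *bes1-D* alone and was not tested there.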

How the results depend on the processing

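The number of genes called in WT was 17 with no filter on low values, 22 without the mean-variance trend, 197 with all 22 libraries in 1 fit and 37 to 267 with 1 library left out, where it was 98 as reported. The looser criterion gave 636 genes with a fold change above 1.5, and 1137 to 1961 with 1 library left out, where it gave 1653. With median-of-ratios factors, which moved the median of all tested genes to 0.01, it gave 717 higher and 932 lower genes, 43.5% higher where 51.8% were higher as reported. The interaction of WT and *baf1* had 1 gene with no filter, and 0 to 0 with 1 library left out. The interaction of WT and *bes1-D*, 39 genes as reported, had 19 with no filter, 86 with all 22 libraries in 1 fit, 5 without the trend and 10 to 197 with 1 library left out. The share of WT-called genes with the same direction in *baf1* was 100% with no filter, with median-of-ratios factors and without the trend, and 95.9% to 100% with 1 library left out. In *bes1-D* it was 62.8% as reported, 58% to 69.4% with 1 library left out, 52.8% with all 22 libraries in 1 fit, 56.3% at a minimum mean of 50 and 70% without the trend. Of the 98 genes, 8 were called in every alternative in which they could be fitted and 0 changed sign. The BR synthesis genes *BR6OX2*, *CPD* and *DWF4* were not among these 8, and were called in 15, 14 and 13 of 16 alternatives. Only replicate numbers 1 and 2 occur in both WT groups, and nothing in the labels ties them. Deviations of same-numbered libraries correlated at 0.22 and 0.04, and the best matches of BRZ-treated replicates 1, 2 and 3 were untreated replicates 1, 5 and 4. With the number as a replicate block, 455 genes were called in WT, the *bes1-D* interaction had 1 gene, and 90.02% of the WT-called genes had the same direction in *baf1*. In that fit the BRZ effect in WT came only from replicates 1 and 2. The other WT libraries had no partner of the same number, so the 455 are not a count from all WT libraries. *BEH4* had a log2 fold change of 0.10 with the block, 0.016 without untreated replicate 5 and 0.012 without BRZ-treated replicate 2, where it had −0.11 (−0.27 to 0.016 with 1 library left out). *BZR1* had 0.016 and 0.032 without BRZ-treated replicates 1 and 2, where it had −0.06 (−0.24 to 0.032 with 1 library left out). The cause of these changes was not tested. Weights from estimated reads, added after seeing the data, gave 106 genes called in WT. Depth limits the low genes most, since the minimum mean of 10 leaves few reads per library.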

Other observations

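Some called genes outside the lists shared an annotated product, and these groups were formed after their values were seen. Of 40 tested genes annotated as arabinogalactan proteins, cell surface glycoproteins, 5 fell and 0 rose, against 0.352% of all tested genes called lower. They were *AGP21* at −0.58, *AGP9* at −0.63, *FLA8* at −0.47, *FLA2* at −0.61 and *AT4G16980* at −0.47 on the log2 scale, and 28 of the 40 were below 0, where 55.3% of all tested genes were above 0. Of 3 genes for APS reductase, which reduces activated sulfate, 2 rose, against 0.253% of all tested genes called higher. *APR3* (AT4G21990) had 335, 261 and 292 normalized reads in BRZ-treated libraries, against 159.9, 165, 185 and 156 in untreated libraries (log2 fold change 0.82, SE 0.13, adjusted p = 0.00607) and *APR2* (AT1G62180) had 547, 578 and 607 normalized reads in BRZ-treated libraries, against 376, 332, 365 and 470.3 in untreated libraries (log2 fold change 0.59, SE 0.13, adjusted p = 0.0469), while *APR1* (AT4G04610) had a log2 fold change of 0.27 (adjusted p = 0.561). *MGL* (AT1G64660), for a methionine lyase, was also chosen from the called genes and had 178, 179 and 174 normalized reads in BRZ-treated libraries, against 62.4, 83.7, 92.7 and 88.3 in untreated libraries (log2 fold change 1.120, SE 0.16, adjusted p = 0.00324). The glutathione transferase genes *GSTU24* and *GSTU25*, which are neighbors, fell at −0.88 and −1.23, and 8 of 40 tested genes of that product were lower at the looser criterion, with 0 higher, against 4.92% and 5.29% of all tested genes. Of 15 tubulin genes, *TUB6* fell at −0.48, and 5 were lower at the looser criterion, against 0.352% of all tested genes called lower and 4.92% lower at that criterion.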
